A study of Danio rerio with 9 samples.

Results

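Zebrafish larvae that received tacrine before neomycin were compared with larvae that received neomycin alone. The comparison was defined by the sample labels and rests on 6 of the 9 arrays of the series, 3 per group. In the pretreated group, larvae at 5 days post fertilization were kept in tacrine at 50 µM for 1 h, after which neomycin was given at 200 µM for 1 h. The neomycin group had 1% DMSO in place of tacrine during the first hour and the same dose and time of neomycin. The 3 control arrays, used here only as levels beside the comparison and for the shared estimate of spread, are of larvae given 1% DMSO and then vehicle. All 9 arrays hold total RNA of the whole body, and the labels name no strain. No DMSO level is stated for the larvae given tacrine, so a difference in DMSO cannot be told apart from tacrine. There is no group with tacrine alone in the labels, so neither the action of tacrine without neomycin nor an interaction of the drugs can be estimated.

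Tacrine inhibits acetylcholinesterase, the enzyme that ends the signal of acetylcholine at nerve and neuromuscular synapses, and it also inhibits butyrylcholinesterase. Neomycin is an aminoglycoside antibiotic that enters hair cells, the sensory cells of the ear and of the lateral line organs on the skin, through their mechanotransduction channels and kills them. Stimulated cells transcribe immediate early genes, such as those of the AP-1 transcription factor, within minutes and without new protein. Cytokines and leptin signal through JAK kinases and STAT factors, and this signal is stopped by the SOCS proteins that it induces.

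The levels given below are log2 processed signals minus the 75th percentile of their array, so that 0 marks that percentile, and a difference is the level with tacrine and neomycin minus the level with neomycin alone. Each was tested with limma on the 31671 probes with a signal well above background in 3 or more arrays, and p-values were adjusted by the method of Benjamini and Hochberg over these probes with a threshold of 0.05. On single arrays between 65.6% and 73.8% of the probes had a signal well above background, and the 75th percentile of the signal lay between 105.1 and 225.9 over the 9 arrays. Along the first principal component (29.3% of the variance) the 3 pretreated arrays (46.3 to 65.2) lay apart from the neomycin arrays (-24.3 to -19.8) and the controls (-46.1 to -23.0). Each of the 3 slides held 1 array per group, always with the pretreated sample at place 4, neomycin at place 3 and control at place 1, so an effect of that place cannot be told apart from the treatment. The RNA is of whole larvae, in which fewer cells of a type and less RNA per cell cannot be told apart. Genes known from contractile muscle (45 of 45 on the array), lens (44 of 48), liver (46 of 48), neurons (40 of 42) and epidermis (30 of 30) were detected well enough to be tested, so tissues across the body were represented.

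Pretreatment changed 846 probes (2.67% of those tested). Of these, 571 were higher (1.8%) and 275 lower (0.868%) than with neomycin alone. They stand for 412 named genes, 283 higher and 129 lower, and 283 probes had no gene symbol. The median difference was 1.22 among the higher probes and -1.08 among the lower ones, 539 probes changed at least 2-fold, and 84 rose and 33 fell at least 4-fold. All 846 had the same direction on the 3 slides, and their 2 groups of 3 arrays did not overlap, a pattern that 8090 probes (25.5%) showed in all. With 1 probe per gene, the brightest, 217 of 11326 genes were higher (1.92%) and 96 lower (0.848%), and the median difference over all genes was -0.03. Leaving out any 1 of the 6 arrays gave between 272 and 443 calls, and 223 probes passed in each of the 9 fits without 1 array. With the slide as a block (the block fit below) 645 of the 846 probes passed again. Normexp background correction started from the raw spot and background signals and added an offset of 50. Scaled to the 75th percentile it left 12 calls, all among the 846. With quantile normalization after it there were 524 calls, 407 of them among the 846. How far the offset or the scaling made differences smaller or calls fewer was not tested. Of the 126 genes named by the rule that passed, 117 no longer did so with normexp, and in 62 of the 126 the difference was over 1.5 times smaller. The 9 that kept their call were socs3a, fosab, jdp2b, hspb9, bag3, xirp1, slc16a9b, arrdc3b and stard8.

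**Figure D1:**
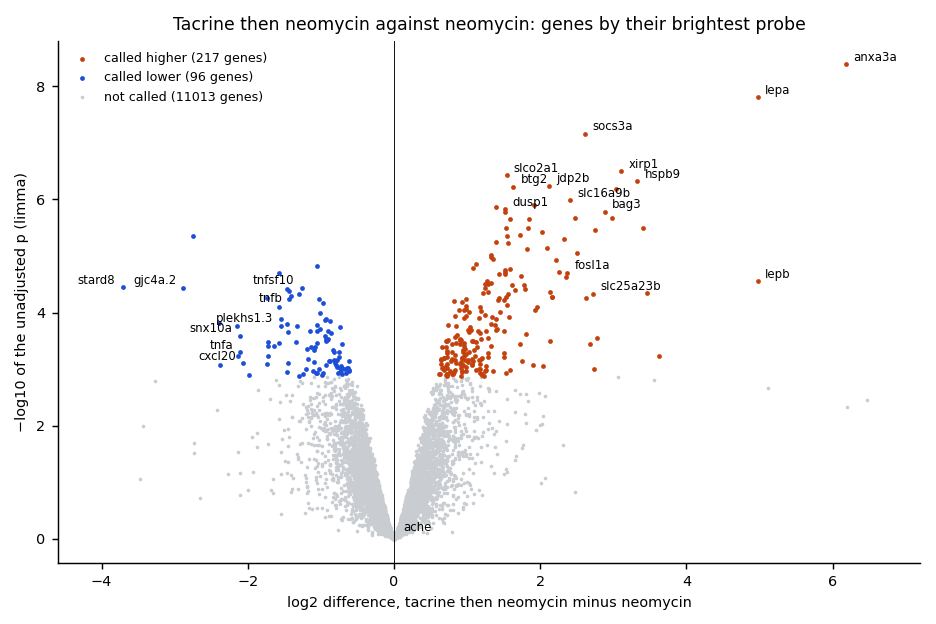
Each point is 1 of 11326 genes by its brightest probe. The x axis is the log2 difference, tacrine and neomycin minus neomycin alone, and the y axis is -log10 of the unadjusted limma p-value. Coloured points passed at an adjusted p under 0.05: 217 genes to the right of 0 and 96 to the left.

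The largest change among genes that passed was in anxa3a, an annexin, one of a family of calcium-dependent membrane-binding proteins. It stood at -0.23, -1.32 and -0.99 on the arrays with tacrine and neomycin, against -7.26, -6.61 and -7.22 with neomycin alone. No neomycin array showed it well above background, so the rise is given as at least 20.8-fold (adjusted p = 6.56e-05). With normexp the difference was 1.32 and did not pass (adjusted p = 0.186). Control larvae stood at -0.45, -0.76 and -0.83, so the pretreated arrays overlapped the controls and the neomycin arrays lay apart from both. None of the other 16 measured annexins passed, and anxa3b, its closest namesake, differed by 0.11 (adjusted p = 0.84). asb5a, an ankyrin repeat protein with a SOCS box, stood at -4.72, -4.87 and -4.66 with pretreatment, at -7.57, -7.22 and -7.45 with neomycin alone and at -5.88, -5.59 and -4.97 in controls, a rise over neomycin of at least 1.39-fold (adjusted p = 0.0013, on 1 of 2 probes; a difference of 0.02 with normexp). Its pretreated arrays lay above all controls, and neither neomycin nor control arrays were well above background, so those 2 groups have no order. pet117, an assembly factor of cytochrome oxidase that was singled out after its values were seen, stood at 0.23, -0.38 and -0.59 with pretreatment, at -1.78, -2.19 and -2.12 with neomycin alone and at -0.12, 0.13 and 0.38 in controls. The control levels are given as a description, since both comparisons use the same neomycin arrays.

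Both leptin genes rose. Leptin is the hormone of energy balance in mammals, and fish carry it as a pair of genes. lepa stood at 1.1, 0.65 and 0.73 with tacrine and neomycin, against -3.52, -4.64 and -4.30 with neomycin alone, a difference of 4.98 (SE 0.27, n = 3 per group, 31.6-fold, limma adjusted p = 0.000165). lepb stood at -0.46, -1.16 and -1.10, against -4.39, -5.94 and -7.32, where 1 of the 3 neomycin arrays was well above background (4.98, SE 0.65, adjusted p = 0.00667). For both genes the groups lay wholly apart, as they did for all 846 called probes. Both passed in the block fit and without any 1 array. With normexp neither passed, and the differences were 2.43 for lepa (adjusted p = 0.0694) and 1.16 for lepb (adjusted p = 1). With normexp and quantile normalization both passed, at 2.11 (adjusted p = 0.000145) and 1.03 (adjusted p = 0.000922). Of 9 measured ligands of JAK-STAT receptors the leptins were the 2 that passed. The others ranged between -0.66 for growth hormone, gh1, and 0.97 for cntf, a neurotrophic cytokine, which did not pass (adjusted p = 0.22).

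Among the other genes listed for JAK-STAT signalling, 1 STAT, 1 receptor chain and 4 brakes and targets passed, all of them higher. stat3, the factor that leptin and cytokines of the interleukin-6 type activate, stood at 2.15, 1.81 and 1.84 with pretreatment, against 1.03, 0.99 and 0.74 with neomycin alone. It passed on all 3 of its probes (1.01, SE 0.17, 2.02-fold, adjusted p = 0.0202), although it no longer passed in 4 of the 9 fits without 1 array. The other 6 STATs did not pass and lay between -1.14 for stat4 and 0.08 for stat5a. Of 12 receptors and kinases il13ra1, a receptor chain for interleukin-13, rose (1.06, adjusted p = 0.0404; 0.0708 in the block fit), while il6st, the shared receptor chain of the interleukin-6 family, differed by 0.93 (adjusted p = 0.052) and jak1 by 0.69 (adjusted p = 0.082) without passing. il13ra1 lost the call in 6 of the 9 fits without 1 array. Of 14 brakes and targets 4 rose and 13 differences were positive. socs3a, which blocks JAK kinases at cytokine and leptin receptors, stood at 5.14, 4.85 and 5.05, against 2.65, 2.47 and 2.11, the groups more than 2 units apart (2.61, SE 0.17, 6.10-fold, adjusted p = 0.000439). socs3b rose by 1.84 on 4 of 4 probes, socs1a by 1.57 and the survival kinase pim1 by 1.36. socs1a lost the call in 4 of the 9 fits without 1 array. Over the whole list of 42 genes 8 rose and none fell, with a median of 0.28, against -0.03 over all genes.

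The AP-1 subunits rose as a group: 6 of 10 passed, none fell, and all 10 differences were positive with a median of 1.18 (1.33, 0.93 and 1.47 on the 3 slides). jdp2b, a partner of Jun, stood at 2.82, 2.41 and 2.75 with pretreatment, against 0.72, 0.28 and 0.62 with neomycin alone (2.12, SE 0.17, 4.34-fold, adjusted p = 0.00113). fosl1a stood at -2.83, -3.53 and -3.19, against -6.13, -5.0 and -5.53, with 1 of the 3 neomycin arrays well above background (2.37, SE 0.29, adjusted p = 0.00552; 0.17 with normexp). The pretreated arrays lay above every neomycin array for both, as for every probe called higher. The other members that rose were fosab (2.03), the Jun gene junbb (1.33), the small Maf protein mafk (1.29) and atf3 (1.08), a stress-induced repressor, and atf3 no longer passed in 7 of the 9 fits without 1 array. jdp2b (-0.49, -0.76 and -0.65 in controls), fosab, junbb and atf3 already lay above control levels with neomycin alone. fosab stood at 4.66, 4.50 and 4.90 with pretreatment, at 2.58, 3.01 and 2.36 with neomycin and at 0.37, -0.02 and 0.43 in controls, so that its 3 groups formed 3 steps.

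Early genes outside AP-1 changed less evenly. None of 7 measured EGR and NR4A factors passed in the limma test, with 5 higher and none lower at an unadjusted p under 0.05. egr4 came nearest (0.99, adjusted p = 0.0539), egr3 differed by 0.67 and nr4a1 by 0.45, and egr1 was not tested because it was well above background on too few arrays. Of 13 KLF factors klf6a rose (4.15, 4.27 and 4.38, against 2.84, 2.97 and 3.01, adjusted p = 0.0039) and klf6b rose by 0.84 (adjusted p = 0.0445; 0.0672 in the block fit, and a difference of 0.11 with normexp), and all 13 differences were positive with a median of 0.55. For klf6b the pretreated arrays (-2.85, -3.24 and -2.84) and the neomycin arrays (-4.03, -3.59 and -3.82) lay below the controls (-2.80, -2.49 and -2.78). The growth factor-induced mycb rose by 1.32 on 3 of 3 probes. The C/EBP factors, which switch on acute-phase and metabolic genes, rose together: cebpa by 1.5 and cebpd by 1.12 on 3 of 3 probes each, and cebpb by 0.93. cebpb passed on 1 of 2 probes and lost the call in 7 of the 9 fits without 1 array. Over all early transcription factors 13 of 42 rose and none fell.

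Genes that end growth signals rose beside them. Of 9 MAP kinase phosphatases, which remove the activating phosphates of ERK, p38 and JNK, 4 rose and none fell (median 0.48). dusp1 stood at 2.99, 2.91 and 2.92 with pretreatment, against 1.46, 1.25 and 1.55 with neomycin alone, with very little spread in either group (1.52, SE 0.14, 2.87-fold, adjusted p = 0.00175). dusp4 was not well above background on any neomycin array and was at least 1.89-fold higher (adjusted p = 0.00319), but differed by 0.03 with normexp (adjusted p = 1). dusp5 rose by 1.18 and dusp6 by 0.63, the second without passing under the block (adjusted p = 0.0572) or in any of the 9 fits without 1 array. Of 7 Sprouty proteins and relatives, which restrain the same pathway nearer to the receptor, none passed in the limma test on its brightest probe, and 2 were higher and none lower at an unadjusted p under 0.05. errfi1a, which blocks the EGF receptor, differed by 0.98 (adjusted p = 0.0529), and spry4 passed on 1 of 2 probes. The difference between these roles was not tested. Of 13 growth arrest genes 5 rose. The antiproliferative btg2 stood at 4.60, 4.71 and 4.50, against 3.09, 2.85 and 2.99 (1.63, SE 0.13, adjusted p = 0.00113). Its relatives tob1a and tob1b rose by 1.08 and 0.64, and the stress sensors gadd45ba and gadd45bb by 1.58 and 1.21. tob1b lost the call in 8 and gadd45bb in 7 of the 9 fits without 1 array.

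**Figure D2:**
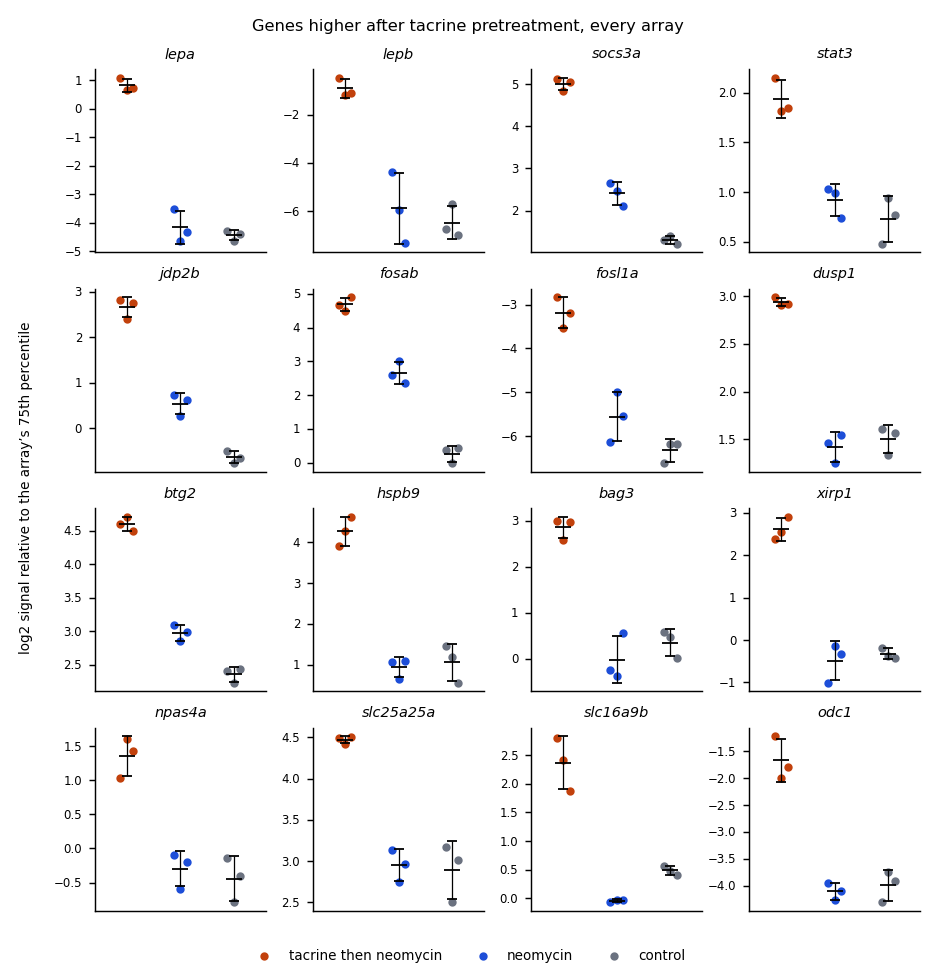
Levels of 16 genes that rose, as log2 signal minus the 75th percentile of the array on the y axis. Each dot is 1 array, with tacrine and neomycin at the left of each panel, neomycin alone in the middle and control at the right, and bars give mean and SD of 3 arrays. In each panel the 3 pretreated arrays lie above the 3 neomycin arrays, as for every probe called higher.

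Tumour necrosis factor ligands moved the opposite way. Of 7 measured genes of this role, which include il1b, 4 fell and none rose, with a median of -0.86 (-1.04, -0.82 and -0.72 on the 3 slides, and -0.33 with normexp), against -0.03 over all genes and a background of 0.848% of genes lower. tnfb, a cytokine of inflammation, stood at -0.69, -0.46 and -0.07 with pretreatment, against 1.14, 1.08 and 0.86 with neomycin alone (-1.43, SE 0.20, adjusted p = 0.00793). Control larvae stood at -0.63, -0.18 and -0.53, so the pretreated arrays overlapped the controls and the neomycin arrays lay above both. tnfsf10, the ligand known as TRAIL, stood at -1.97, -1.64 and -1.84, against -0.81, -0.25 and -0.61 (-1.26, SE 0.17, 2 of 2 probes, adjusted p = 0.00757). Its levels in controls, -0.41, -0.42 and -0.40, were close to those with neomycin alone, so this fall was below the control level.

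tnfsf12, the ligand TWEAK, fell by 0.86 (1 of 2 probes, adjusted p = 0.0207). tnfa was well above background on 3 neomycin arrays and on no pretreated array, and was at least 2.53-fold lower (adjusted p = 0.0307; 0.0647 in the block fit, and a difference of -0.33 with normexp). tnfa no longer passed in 6 and tnfsf12 in 4 of the 9 fits without 1 array. The Fas ligand faslg differed by -0.42 and the interleukin il1b by 0.42 (adjusted p = 0.734), neither passing. nfkbie, an inhibitor of NF-kB that is itself a target of NF-kB in mammals, stood at -0.64, -0.35 and -0.25, against 0.65, 0.41 and 0.49 (-0.93, SE 0.15, 2 of 2 probes, adjusted p = 0.015). Its controls stood at 0.03, -0.17 and -0.07, between the 2 groups. The better known inhibitors nfkbiaa and nfkbiab differed by 0.48 and 0.38 and did not pass. Over the 21 genes of TNF and NF-kB signalling 6 fell and none rose. At an unadjusted p under 0.05 there were 4 higher and 8 lower. The inhibitor tnfaip6 differed by 0.73 without passing (adjusted p = 0.0616) but passed in the block fit (adjusted p = 0.0287). Leaving out 1 array gave between 2 and 6 that fell.

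Interferon genes and chemokines gave fewer calls on the same side. irf1a, a factor that switches on interferon-stimulated genes, stood at -4.36, -4.12 and -4.34 with pretreatment, against -2.94, -3.13 and -3.30 with neomycin alone (-1.15, SE 0.19, adjusted p = 0.0202). The receptor for double-stranded RNA tlr3 fell by 0.81 (1 of 2 probes, adjusted p = 0.0388). irf1a lost the call in 4 and tlr3 in 7 of the 9 fits without 1 array. Of 19 interferon and antiviral genes these were the 2 that passed, and the median was -0.41, with -0.65, -0.50 and 0.03 on the 3 slides. At an unadjusted p under 0.05 this list had 2 higher, irf7 (0.58) and irf9 (0.47), and 6 lower. tlr3 is also 1 of the 6 genes counted as lower in TNF and NF-kB signalling above. On the brightest probe the fish antiviral kinase pkz differed by -0.86 (adjusted p = 0.076), while its second probe was at least 3.80-fold lower (adjusted p = 0.0445; 0.0819 in the block fit, and a difference of -0.43 with normexp). Of 12 chemokines cxcl20 fell (-4.18, -2.94 and -2.94, against -0.87, -1.59 and -1.45, adjusted p = 0.0393, and 0.0745 in the block fit). It lost the call in 7 of the 9 fits without 1 array. Without passing, ccl20a.3 differed by -1.86 (adjusted p = 0.068) and cxcl18b by 0.81 (adjusted p = 0.101). At an unadjusted p under 0.05 the chemokines had 1 higher and 4 lower. Leukocyte markers, from which such transcripts can come, had a median of -0.25 over 27 genes, with 1 higher and none lower past the threshold and 1 higher and 5 lower at an unadjusted p under 0.05. Their part in these differences was not tested.

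Some matrix proteases went the other way. Of 12 proteases and inhibitors 4 rose and none fell (median 0.17), against 1.92% of all genes higher. adam8a, a membrane protease of myeloid cells, stood at 1.06, 0.97 and 0.94 with pretreatment, against -0.25, -0.81 and -0.60 with neomycin alone (1.54, SE 0.16, adjusted p = 0.00247, 1 of 2 probes). mmp9 rose by 1.52 and adamts15a by 1.19 (adjusted p = 0.0633 in the block fit, and a difference of 0.14 with normexp). For adamts15a the pretreated arrays (-3.09, -3.62 and -3.40) overlapped the controls (-3.65, -2.93 and -3.33), and the neomycin arrays lay below both. ptgs2a, an inducible prostaglandin synthase, rose by 1.01 but lost the call in 7 of the 9 fits without 1 array, and its paralog ptgs2b differed by 0.38 without passing.

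**Figure D3:**
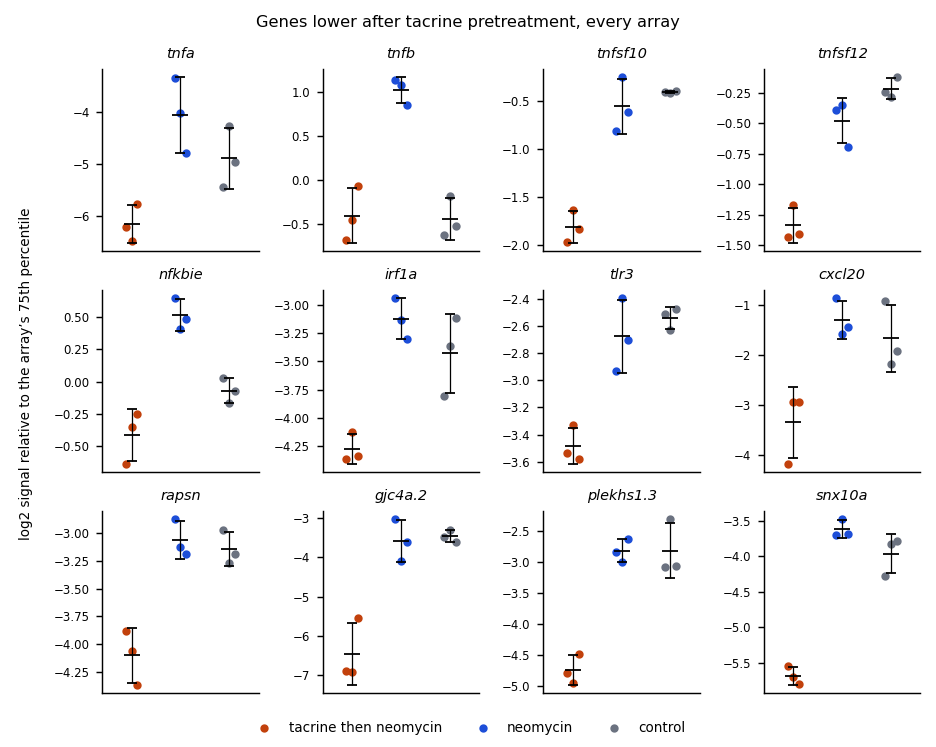
Levels of 12 genes that fell, on the same log2 scale and with the same order of groups. Each dot is 1 array and bars give mean and SD of 3 arrays. In each panel the 3 arrays with tacrine and neomycin lie below the 3 arrays with neomycin alone, as for every probe called lower. In panels such as tnfb, nfkbie and snx10a the neomycin arrays also lie above the controls.

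Few chaperones changed. hspb9, a small heat shock protein, stood at 3.90, 4.28 and 4.62 with pretreatment, against 1.07, 0.66 and 1.09 with neomycin alone (3.33, SE 0.27, adjusted p = 0.00113). Its paralog hspb9l, whose RNA may bind the same probe, rose by 2.48 and the inducible hspa1b by 2.63 (adjusted p = 0.00938). bag3, which hands misfolded proteins to autophagy together with small heat shock proteins, stood at 3.0, 2.59 and 2.98, against -0.25, -0.37 and 0.56 (2.88, SE 0.27, adjusted p = 0.00176). unc45b, the myosin chaperone of muscle, rose by 1.11 (adjusted p = 0.0341; 0.0652 in the block fit). Of 9 listed small heat shock proteins, which do not include hspb9l, hspb9 was the 1 that passed. Their median was 0.73 (0.27 with normexp), 8 differences were positive, and 5 were higher and none lower at an unadjusted p under 0.05. hspb6 differed by 1.94 (adjusted p = 0.146) and cryabb by 1.81 (adjusted p = 0.125) without passing. Apart from bag3 and unc45b, none of 29 listed cytosolic chaperones, which do not include hspa1b, passed. At an unadjusted p under 0.05 they had 8 higher and 2 lower. Without passing, hsp70l differed by 1.04 (adjusted p = 0.234) and hsp90aa1.1 by 1.01 (adjusted p = 0.094). None of 27 chaperones of the endoplasmic reticulum passed in the limma test either, with none higher and 3 lower at an unadjusted p under 0.05 and a median of -0.08.

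Muscle gave a narrow set of changes. xirp1, an actin-binding protein of muscle attachment sites and the heart, stood at 2.38, 2.55 and 2.91 with pretreatment, against -1.01, -0.13 and -0.34 with neomycin alone and -0.18, -0.38 and -0.42 in controls (3.11, SE 0.24, 8.63-fold, 2 of 2 probes, adjusted p = 0.00107). The heart myosin myh6 rose by 1.22 (adjusted p = 0.00844) and was the 1 gene of 45 contractile proteins that passed (median -0.01). The degradation genes fbxo32 and trim63a differed by -0.94 and -0.75 and did not pass. rapsn, rapsyn, which clusters nicotinic receptors at the neuromuscular junction, stood at -3.88, -4.06 and -4.37, against -2.87, -3.12 and -3.19 (-1.05, SE 0.17, adjusted p = 0.0175). It lost the call in 4 of the 9 fits without 1 array and was the 1 gene of 16 of the cholinergic synapse that passed.

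The target of tacrine did not change at the RNA level past the threshold. ache, the gene of acetylcholinesterase, stood at -0.17, -0.14 and -0.26 with pretreatment, against -0.32, -0.29 and -0.05 with neomycin alone, and the groups overlapped (0.03, SE 0.15, adjusted p = 0.944). The acetylcholine transporters slc18a3a and slc18a3b differed by 0.35 and 0.40, and 9 nicotinic receptor genes and partners other than rapsn lay between -0.27 and 0.36.

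Genes that follow neuronal activity in mammals rose in part: 6 of 22 passed and none fell (median 0.29). npas4a, which in mammals is induced by depolarisation in neurons, stood at 1.03, 1.6 and 1.43 with pretreatment, against -0.10, -0.59 and -0.20 with neomycin alone (1.65, SE 0.22, 3.14-fold, adjusted p = 0.00773). rgs2, which shortens the signal of G protein-coupled receptors, stood at 1.06, 0.73 and 1.11, against -0.22, -0.79 and -0.73 (1.55, SE 0.23, adjusted p = 0.0111). inhbaa, the activin A subunit, rose by 1.24 and sik1, a kinase induced by cAMP, by 0.92. bdnf differed by 0.55 (adjusted p = 0.089), and the neuropeptide genes penka and pdyn by 0.03 and 0.43, none of the 3 passing. None of 36 potassium channels and 20 sodium and calcium channels passed in the limma test. At an unadjusted p under 0.05 the potassium channels had 4 higher and 3 lower and the other channels 1 each way.

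**Figure D4:**
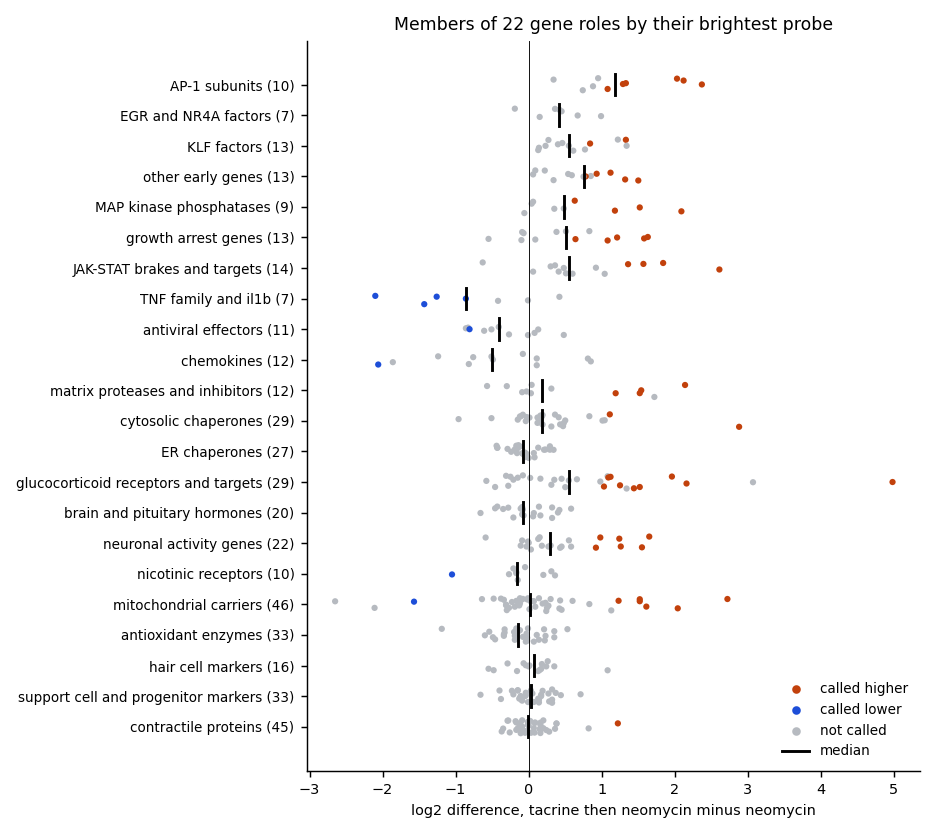
Differences, tacrine and neomycin minus neomycin alone, on a log2 scale (x axis) for the members of 22 roles, 1 role per line. Each dot is 1 gene by its brightest probe, coloured by whether it passed as higher or lower or did not pass, and the black mark is the median of the role. The AP-1 subunits have a median of 1.18 and the TNF ligands one of -0.86. Other early genes (0.75), KLF factors (0.55) and the glucocorticoid set (0.55) also centre above 0, and chemokines (-0.50) and antiviral effectors (-0.41) below it. Roles such as ER chaperones (-0.08), mitochondrial carriers (0.01) and contractile proteins (-0.01) centre near 0.

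Of 46 mitochondrial carriers, which move metabolites across the inner membrane, 6 rose and 1 fell (median 0.01). 4 of the 7 passed in every fit without 1 array, and none passed with normexp. 3 of the 6 are paralogs of 1 type, the carriers that in mammals exchange ATP-Mg for phosphate and are switched on by calcium. slc25a25a stood at 4.49, 4.42 and 4.50 with pretreatment, against 3.13, 2.75 and 2.97 with neomycin alone (1.52, SE 0.19, adjusted p = 0.00556). slc25a25b stood at -1.39, -1.68 and -1.46, against -2.86, -3.13 and -3.10 (1.52, SE 0.14, adjusted p = 0.00176). slc25a23b was well above background on no neomycin array and was at least 2.25-fold higher (adjusted p = 0.00846). With normexp the differences were 1.56 for slc25a25a, 0.58 for slc25a25b and 0.08 for slc25a23b. For the first pair the groups lay more than 1 unit apart. The fourth measured paralog, slc25a24, differed by 0.14 and did not pass.

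Another pair of carriers, slc25a15a and slc25a15b, imports ornithine into mitochondria, and rose by 1.61 and 1.23, the second with an adjusted p of 0.0496 (0.052 in the block fit). odc1, ornithine decarboxylase, the first enzyme of polyamine synthesis, stood at -1.22, -1.99 and -1.80 with pretreatment, against -3.95, -4.27 and -4.10 with neomycin alone (2.44, SE 0.23, 5.41-fold, 4 of 4 probes, adjusted p = 0.00176). slc7a3a, which brings arginine, lysine and ornithine into the cell, rose by 1.27 on 2 of 2 probes. The carrier that fell was slc25a48, by 1.57 to 1.64 on its 3 probes, which was singled out after its values were seen. None of 81 subunits of the respiratory chain and ATP synthase and none of 64 mitochondrial ribosomal proteins passed in the limma test. Sets of this size would hold few calls at the share over all genes, 1.92% higher and 0.848% lower. At an unadjusted p under 0.05 the respiratory chain set had none higher and 1 lower, the mitochondrial ribosomal proteins none higher and 2 lower.

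Of 194 solute carriers of the plasma membrane 11 rose and 2 fell, and between 2 and 10 rose when 1 array was left out. slc16a9b, of the monocarboxylate transporter family, stood at 2.80, 2.42 and 1.88 with pretreatment, against -0.07, -0.03 and -0.03 with neomycin alone (2.41, SE 0.21, 5.31-fold, 2 of 2 probes, adjusted p = 0.00154). The lactate exporter slc16a3b rose by 1.15. The sodium-phosphate cotransporter slc34a2a stood at 1.33, 0.28 and -0.03, against -2.54, -2.79 and -1.14, with neomycin 3 nearer to the pretreated arrays (2.68, SE 0.49, adjusted p = 0.0263; 3.19 without neomycin 3). Counted with the drug transporters, slco2a1, which carries prostaglandins in humans, stood at 0.31, 0.25 and 0.26, against -1.32, -1.31 and -1.17, with little spread in either group (1.54, SE 0.12, adjusted p = 0.00107). The iron exporter slc40a1 fell (-0.78 on its brightest probe, 3 of 4 probes) and was named after its values were seen.

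Of 29 glucocorticoid receptors and targets 9 rose and none fell (median 0.55). lepa, dusp1 and cebpd of this set are given above. foxo1a, a factor that insulin keeps out of the nucleus, was not well above background on any neomycin array. It was 2.71-fold higher as measured (adjusted p = 0.00562), but differed by 0.06 with normexp (adjusted p = 1). The receptors nr3c1 and nr3c2 differed by -0.21 and -0.08, and none of 20 hormone genes of brain and pituitary passed in the limma test (1 higher and 1 lower at an unadjusted p under 0.05). ddit4, which restrains the growth kinase mTOR, stood at 1.37, 1.84 and 1.95 with pretreatment, against -0.17, -0.75 and 0.20 with neomycin alone (1.96, SE 0.29, adjusted p = 0.0114). igf1 rose by 1.19 (adjusted p = 0.024), with 1 neomycin array well above background, but differed by -0.01 with normexp.

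1 neomycin array stood apart in several of these genes. fkbp5, a co-chaperone of the glucocorticoid receptor, stood at -0.67, 0.12 and -0.26 with pretreatment, against -4.18, -4.70 and -2.06 with neomycin alone, and at -1.05, -1.09 and -1.02 in controls. nr1d1, the clock repressor REV-ERB alpha, stood at -0.91, -0.29 and -0.37, against -3.45, -2.79 and -1.70. ucp3, an uncoupling protein, stood at 4.30, 4.24 and 3.42, against 1.57, 1.34 and 2.95, and g6pc1a.2, a glucose-6-phosphatase, at 3.86, 3.85 and 3.89, against 2.28, 2.24 and 3.32. In each of these 4 genes neomycin 3 lay nearest to the pretreated arrays, and controls lay above the neomycin means. The difference for fkbp5 was 3.37 on 1 of 2 probes (adjusted p = 0.0201) and 4.17 without neomycin 3. That for nr1d1 was 2.13 (1 of 2 probes), against 2.6 without neomycin 3. That for ucp3 was 2.04, against 2.53, and that for g6pc1a.2 1.25 (1 of 3 probes), against 1.6. In the block fit ucp3 did not pass (adjusted p = 0.0793). The calls of ucp3 and g6pc1a.2 were lost in 8 of the 9 fits without 1 array, that of fkbp5 in 5 and that of nr1d1 in 4.

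Among clock genes the changes lay with repressors and outputs. bhlhe41 stood at -2.38, -1.64 and -1.15 with pretreatment, against -4.62, -4.79 and -4.72 with neomycin alone (2.98, SE 0.28, 2 of 2 probes, adjusted p = 0.00176), and per1b stood at -2.18, -2.14 and -2.03, against -3.08, -3.20 and -3.15. Both sets of arrays lay well apart. The output factor nfil3-6 rose by 1.56. With normexp the differences were 0.71 for bhlhe41, 0.21 for per1b and 0.46 for nfil3-6, and none of them passed. None of 7 activators, the CLOCK, BMAL and ROR genes, passed in the limma test, and none was higher or lower at an unadjusted p under 0.05.

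Of 89 genes of drug metabolism 3 rose and 2 fell (median -0.10). The largest difference among these 5 was in the sulfotransferase sult5a1, which stood at -1.24, -1.23 and -0.24 with pretreatment, against 1.98, 0.97 and 0.78 with neomycin alone (-2.15, SE 0.35, 1 of 2 probes, adjusted p = 0.0181). Its controls stood at -0.36, -0.23 and -0.05, so the pretreated arrays overlapped the controls and the neomycin arrays lay above both. Of 36 cytochromes outside the aryl hydrocarbon receptor set none passed in the limma test, with 1 higher and 10 lower at an unadjusted p under 0.05 (median -0.21). cyp1a, the main target of that receptor, stood at 2.84, 3.13 and 2.61 with pretreatment, against 2.25, 2.44 and 2.28 with neomycin alone, apart but not past the threshold (0.53, SE 0.19, adjusted p = 0.189), and tiparp, another target, rose by 0.96 on 1 of 3 probes. A second sulfotransferase, sult1st5, fell by 1.01 and the glucuronosyltransferase ugt5a1 rose by 1.35. Of 33 antioxidant enzymes none passed, with 1 higher and none lower at an unadjusted p under 0.05. hmox1a stood at 1.92, 1.51 and 1.6, against 1.05, 2.02 and 2.00, and overlapped (-0.01, SE 0.28, adjusted p = 0.986). Of 29 BCL2 family members and caspases xiap, which blocks caspases, rose (1.02 on its brightest probe, adjusted p = 0.0205), and of 20 p53 targets btg2 was the 1 that passed.

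Hair cells, the cells that neomycin kills, gave no call. Of 47 marker genes written for them 27 were on the array and 16 were tested, none passed in the limma test, and none was higher and 2 lower at an unadjusted p under 0.05. The median was 0.07. atoh1a, the factor that makes hair cells, stood at -3.64, -3.47 and -3.61 with pretreatment, against -3.85, -3.70 and -3.71 with neomycin alone (0.18, SE 0.16, adjusted p = 0.622), and pou4f3 was not tested because it was well above background on too few arrays. The motor myo7aa differed by 0.35, the calcium buffers pvalb8 and pvalb9 by -0.04 and 0.13, and the otic calcium-binding s100t by 0.17. Of 33 support cell and progenitor markers none passed either, with 2 higher and 2 lower at an unadjusted p under 0.05. Hair cells are a small share of a whole larva, so these data do not show whether their RNA changed.

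Large housekeeping sets stayed without calls, beside a share over all genes of 1.92% higher and 0.848% lower. None of 81 cytosolic ribosomal proteins (median -0.20), 44 proteasome subunits (-0.06), 64 cell cycle genes (-0.08) and 28 glycolytic enzymes (0.13) passed in the limma test. At an unadjusted p under 0.05 the ribosomal proteins had none higher and 2 lower, the proteasome none either way, the cell cycle 1 higher and 7 lower and glycolysis 4 higher and none lower. The ribosomal median was -0.45, -0.03 and -0.10 on the 3 slides. None of 40 neuron and glia markers, 44 lens, 25 pancreas, 26 intestine, 24 cartilage and 36 ionocyte and kidney markers passed, and at an unadjusted p under 0.05 these had between 0 and 7 higher and between 0 and 4 lower. The pancreas median was -0.31, with 2 of 25 differences positive, and the lens median -0.16, with 2 of 44 positive. Of 46 liver markers vtg7 (2.77) and the apolipoprotein apoa4a (1.59) rose and the clotting factor f9a (-1.17) fell. Of 30 epidermal markers the keratin krt18a.1 (0.98) rose and zgc:111983 (-1.06) fell, and of 45 photoreceptor markers the phosphodiesterase pde6c (0.93) rose. Each of these 6 genes lost the call in 5 to 7 of the 9 fits without 1 array, and apoa4a (adjusted p = 0.0569), f9a (0.0665) and pde6c (0.0602) also in the block fit. Of 28 erythroid markers 5 rose (median 0.22), none of them in all 9 fits without 1 array. Targets of Wnt, Notch, and FGF and retinoic acid signalling, 14, 28 and 23 genes, also gave none. At an unadjusted p under 0.05 Wnt had none, Notch 1 higher, and FGF and retinoic acid 1 higher and 3 lower. Of 24 targets of YAP and SRF the matrix proteins ccn1l1 (2.35), ccn1 (1.29) and ccn1l2 (0.68; adjusted p = 0.0642 in the block fit) rose, and ccn1l2 lost the call in all 9 and ccn1 in 5 of the fits without 1 array.

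The largest falls did not share 1 list, although some are on lists, such as gjc4a.2 (gap junctions) and, above, tnfa, cxcl20 and sult5a1. stard8, a START domain protein, stood at -2.80, -2.77 and -0.76 with pretreatment, against 1.84, 1.91 and 1.06 with neomycin alone, and pretreated array 3 and neomycin array 3 lay nearest to each other (-3.71, SE 0.50, 2 of 3 probes, adjusted p = 0.00757). The connexin gjc4a.2 was well above background on no pretreated array and was at least 3.53-fold lower (1 of 2 probes, and a difference of -0.44 with normexp). The neighbouring gene by name, gjc4a.1, differed by 0.97 and did not pass, and the connexins gja13.1 (1.42) and gja12.1 (1.16) rose. 3 paralogs of a pleckstrin homology protein fell. plekhs1.3 stood at -4.78, -4.95 and -4.48, against -2.84, -3.0 and -2.63 (-1.91, SE 0.23, 3 of 3 probes, adjusted p = 0.00529), and plekhs1.1 and plekhs1.2 were at least 1.90-fold and 1.44-fold lower, the second with an adjusted p of 0.0763 under the block. With normexp these 2 differed by -0.29 and -0.31. Probes of such close paralogs can bind the same RNA, and whether the 3 are separate results is uncertain. The endosomal sorting nexin snx10a was at least 3.26-fold lower on its best probe (2 of 3 probes, adjusted p = 0.00113; a difference of -0.37 with normexp). asah1a, the lysosomal acid ceramidase, fell by 1.01 and was the 1 gene of 64 for lysosome and autophagy that passed.

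Other large changes stood alone as well. arl14, a small GTPase of the ARF-like family, stood at -1.79, -0.53 and -0.28 with pretreatment, against -4.45, -4.11 and -4.26 with neomycin alone (3.4, SE 0.34, adjusted p = 0.00231; 1.26 with normexp). loxl2a, a lysyl oxidase that crosslinks matrix, stood at -2.17, -1.35 and -2.24, against -4.66, -4.43 and -4.17 (2.5, SE 0.28, 2 of 2 probes, adjusted p = 0.00363; 0.57 with normexp). vtg7, a vitellogenin, stood at -2.17, -1.36 and -3.43, against -4.88, -4.88 and -5.49, with 1 neomycin array well above background (adjusted p = 0.0238; a difference of 0.56 with normexp). The groups did not overlap in any of the 3, which the rule that named them required. Among the falls were the carotenoid oxygenase bco2b (-2.14), the C-reactive protein gene crp6 (-1.98), the kinase stk17a (-1.79), the Mediator subunit med17 (-1.77) and pts, an enzyme of tetrahydrobiopterin synthesis (-1.74). These 5 lost the call in 6 to 8 of the 9 fits without 1 array, and in the block fit bco2b was the 1 of the 5 that passed (adjusted p = 0.0473). stk17a, med17 and pts passed on 1 of 2 probes each.

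Of 54 genes of the integrated stress response and amino acid supply 6 rose and none fell (median 0.22). trib3, a pseudokinase induced by this response in mammals, stood at 4.23, 3.60 and 3.96 with pretreatment, against 2.96, 2.63 and 3.03 with neomycin alone (1.06, SE 0.19, adjusted p = 0.0246). The cysteine pathway enzyme cbsb rose by 0.86 (1 of 3 probes) and slc3a2b, the heavy chain of amino acid exchangers, by 0.72 (adjusted p = 0.0622 in the block fit). trib3 and cbsb lost the call in 5 and slc3a2b in 8 of the 9 fits without 1 array. Of the 6 genes 2 passed in every such fit, and none passed with normexp. Of 29 genes of sterol synthesis and uptake 3 rose and none fell (median 0.24): hmgcra, the rate-limiting reductase (1.16), hmgcs1 (0.99; adjusted p = 0.0547 in the block fit) and mylipb (0.85; 0.0641 in the block fit), none of them in all 9 fits without 1 array. hsd11b2, which inactivates cortisol, stood at 2.90, 2.79 and 2.89, against 1.47, 1.16 and 1.93 (1.34, SE 0.21, 2 of 2 probes, adjusted p = 0.0145), and the 2 groups lay apart. Control larvae stood at 2.80, 2.33 and 2.43, so the pretreated arrays overlapped the controls and the neomycin arrays lay below both. Of 8 regulators of the hypoxia response hif1al rose (0.99, 2 of 4 probes, adjusted p = 0.0114).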

How the data were processed

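RNA of whole zebrafish larvae was measured on 9 single-colour (Cy3) Agilent arrays. The deposited scanner values are spot intensity, not on a log scale, per the file headers. The processed signal, which Feature Extraction had corrected for background, was analysed, and the median signals of spots and of their surroundings served an alternative. Deposited 0 or 1 marks (another unit, per the file headers) give spots well above background. The headers name Feature Extraction 10.1.1.1 and the submitters' processing notes 8.0. A deposited series matrix of the authors holds log2 values for 25265 probes. The median of each column is 7.11 or 7.12, and r against the scanner values of the same array lies between 0.981 and 0.986. How it was scaled is not given in the sources used here, and it served as an alternative.

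Spots of a probe were averaged on the log2 scale and the 75th percentile over non-control probes was subtracted per array. Of 43603 probes 31671 were tested, 11932 were too dim, and none was saturated. All 9 arrays were fitted with 3 group means (limma 3.58.1, lmFit and eBayes without trend, R 4.3.3; two-sided tests with 6 residual and 3.12 prior degrees of freedom), and tables were made with Python 3.11.15. The labels state independent experiments, and p-values measure the spread between these samples; the number of arrays limits the precision, with a median standard error of 0.2. The fit was tested on simulated data. "At least" marks a bound for probes well above background on no array of a group. Arrays of that group below the lowest signal that counted as well above background there were raised to it. Arrays already above it kept their own level, so for foxo1a the bound equals the measured fold. Such a bound is for the processed signal and is not a limit under other background corrections. Probes were named by RefSeq accession with the symbols of GRCz12tu: 25173 have 1 symbol (12900 genes) and 18430 none. No positions are given, since the array design predates this assembly.

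The groups, the 27 gene lists with their 90 roles and the rule for naming genes were chosen with earlier results of these data known, so no list count is independent support. Genes were named from the 20 largest rises and 15 largest falls with a gene name whose groups do not overlap, up to 4 members per role by smallest p, and ache, lepa, lepb, fosab, egr1, hsp70l, hmox1a, cyp1a, il1b, anxa3a, atoh1a and pou4f3. List members beyond these were named after their values were seen, and the results of some genes are not reported here. Older symbols were used to match 37 members. Lists are counted by the brightest probe of a gene.
Same-numbered arrays share a slide; deviations from the group means correlated with r = 0.11, 0.186 and -0.083 between pretreated and neomycin arrays of slides 1 to 3. Alternatives were other background corrections and normalizations, other filters, fewer arrays, the slide as a block, a trend, array weights and the authors' matrix.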

Additional observations from a re-analysis of the deposited data

How the results depend on the processing

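The comparison gave 846 calls, 571 higher (67.5%) and 275 lower. Every one of the 412 called genes kept to 1 direction over its called probes; of 260 with several probes tested all probes passed in 74, and 23 had a probe that did not pass and pointed the other way. Normexp background correction left 12 calls, 11 higher (91.7%) and 1 lower, all 12 among the 846, with a median standard error of 0.32, against 0.2, and turned the sign of igf1 (-0.01). Normexp followed by quantile normalization gave 524 calls (378 and 146), no filter on dim probes 496 (352 and 144), with more probes tested, and array weights, from 0.4 for control 1 to 2.63 for neomycin 3, 2330 (1266 and 1064, 54.3% higher). The cause of the last was not tested. Without 1 array there were between 272 (without pretreated array 1) and 976 calls (without control 1), 205 to 598 higher and 67 to 378 lower. Quantile normalization (850), a stricter filter (958), the 6 arrays alone (700), a trend (1112) and the authors' matrix (893) stayed within 1.5 times. The replicate block, the slide, gave 843 calls, 645 of them shared; same-numbered arrays did not pair on every slide (r = 0.11, 0.186 and -0.083). The gene list counts came to 121 genes passed, 7 with normexp, 78 without filter, 230 with array weights and 52 to 120 without 1 array. Of 132 named genes, 126 of which passed, 29 no longer passed with the block, 117 with normexp, 44 with normexp and quantile and 40 without filter. No scaling moved the median of all probes by 0.1. Motif counts in promoters were planned but not run, since no promoter sequence was used here. Weak probes limit the sizes: 39 called probes were not well above background on any neomycin array and 31 on any pretreated array.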

Other observations

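Several genes on no list changed as well; they were picked after their values were seen and are given as values with no support beyond their own tests (limma adjusted p). 3 alpha-arrestins, adaptors that draw membrane proteins into endosomes, rose. arrdc3b stood at 3.6, 2.55 and 2.48 with tacrine and neomycin, against -0.02, 0.14 and 0.26 with neomycin alone (2.75, SE 0.28, adjusted p = 0.00231), arrdc3a rose by 1.53 (1 of 3 probes) and arrdc2 by 1.25 (2 of 3 probes). The phosphate transporter slc20a1b rose by 1.14 to 1.31 on 3 of 3 probes, its relative slc20a2 by 1.13 on 1 of 3 and the parathyroid hormone gene pth1a by 2.64 (adjusted p = 0.0414; 0.0611 in the block fit). cbx7a, a Polycomb subunit, stood at 2.19, 1.61 and 1.84, against 0.00, -1.03 and -0.47 (2.38, SE 0.29, adjusted p = 0.0053, 3 of 3 probes). The linker histones h1-10 (1.39) and histh1l1 (0.79) rose too. Single genes known from ribosome assembly that rose were ppan (1.26), grwd1 (0.93), polr1b (0.83) and nol6 (0.72), with no count of how many such genes were measured. tph1b, a tryptophan hydroxylase of serotonin synthesis, rose by 1.24 on 2 of 2 probes and mfsd2ab, a lipid transporter, by 1.39 on 3 of 4.

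Falls outside the lists included the chitinases chia.6 (-1.28, 2 of 2 probes, adjusted p = 0.0126) and chia.5 (-0.97, adjusted p = 0.0473; 0.0585 in the block fit), the epithelial cytokine il17c (-1.73, adjusted p = 0.0338; 0.0667 in the block fit), which stood at -3.65, -3.76 and -2.72, against -1.27, -1.96 and -1.72, and the receptor il23r, at least 1.63-fold lower (adjusted p = 0.0249).

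Some of the largest differences did not pass. ggact.1 stood at -0.16, -0.42 and -2.82 with tacrine and neomycin, at -7.48, -7.12 and -7.40 with neomycin alone and at -6.86, -0.43 and 0.77 in controls (adjusted p = 0.0926), and ggact.2 at 0.26, 0.13 and -2.70, at -7.13, -7.38 and -7.20 and at -6.62, -0.35 and 0.79 (adjusted p = 0.0811). In both, control 1 lay with the neomycin arrays and apart from the other controls. ugt5a2 differed by 5.12 (adjusted p = 0.0644), the iron hormone hamp by 3.55 (adjusted p = 0.0546) and the hepatic lipase lipca by -3.27 (adjusted p = 0.0558).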
